A study of Mus musculus with 39 samples.

Results

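Interferon-gamma and 8 genes of its receptor, of interferon transcription factors and of inhibitors were followed through 39 mouse melanoma tumours. The tumours were treated with prostaglandin receptor antagonists, an immune checkpoint antibody, both, or vehicle. The set held Ifng, the receptor chain genes Ifngr1 and Ifngr2, the transcription factor genes Stat2, Irf1, Irf7 and Irf9, and the inhibitor genes Socs1 and Il18bp. These 9 genes were chosen by name, with earlier results of these data known, from the 39179 genes of the count table. All 9 passed the filter on low counts that left 15070 genes tested.

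The tumours were a Braf-mutated melanoma grown from injected cells in C57BL/6 mice, and bulk RNA was sequenced after 2 or 5 days of treatment that began on day 7 after injection. Mice received anti-PD-1 antibody, which blocks an inhibitory receptor of T cells, at 200 µg per dose, or EPAT, which blocks EP2 and EP4, a pair of receptors for prostaglandin E2, at 30 mpk in bidaily doses, or the combination of both, or vehicle, a mixture of DMSO, PEG400 and water. Each group had 5 tumours on each day except anti-PD-1 on day 2, which had 4. All groups shared the strain, the tumour cells and the day on which treatment began. The age and sex of the mice were not given in the sources used here. The extraction text speaks of tumours taken on day 4, which matches neither time point, so the groups follow the time label of each tumour. The name numbers of 3 tumours, anti-PD-1 tumour 3 and EPAT tumour 5 of day 5 and EPAT tumour 5 of day 2, belong otherwise to the other day of the same treatment, and these tumours were kept in the group of their time label. Without them none of the 9 genes passed in any comparison either. Values are CPM, counts scaled to the size of each library after TMM adjustment for composition. The counting of tags near the 3′ end carries no gene length term, so levels are compared between groups of tumours and not between genes.

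Interferon-gamma is a cytokine made by activated T cells and NK cells. It binds a receptor built from the Ifngr1 and Ifngr2 chains, which activates JAK kinases, and the signal then switches on genes such as Irf1. Stat2 and Irf9 encode subunits of the complex that answers type I interferons, and Irf7 encodes a factor that amplifies the production of type I interferons. Socs1 encodes a feedback inhibitor of the JAK kinases, and Il18bp a secreted protein that captures interleukin-18, a cytokine that drives interferon-gamma production.

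Library totals lay between 8385741 and 15558113 counts (median 12193825). Of the melanocyte pigment genes, Tyrp1 had no count in any of the 39 libraries, Tyr had none in 38 and Mlana none in 35, and Dct reached at most 2 counts and Pmel at most 9. The defining pigment markers of the labelled tumour were thus at or near 0, while Mitf was counted in every library (259 to 1065 counts) and Sox10 had none in 11. In vehicle tumours of day 2 summed B cell markers ran between 5.12 and 205 CPM and summed adipocyte markers between 10.3 and 675 CPM. Vehicle tumour 1 of day 2 had mean log2 CPM of 6.05 for B cell and 5.85 for adipocyte markers. Keratinocyte markers were highest in vehicle tumour 2 of day 2 (4.60) and combination tumour 3 of day 5 (3.95). These tumours are among the libraries left out together as an alternative below. The part of their tissue content in the differences from vehicle was not tested. Lung transcripts separated the libraries into 23 with a summed level of at least 50.9 CPM and 16 with at most 1.18 CPM. The labels do not state whether each tumour is from a different animal, so a p-value reflects only how far these samples scatter, which may be technical.

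None of the 9 genes passed an adjusted p of 0.05 in any of the 20 comparisons tested, by the quasi-likelihood test of edgeR, adjusted by Benjamini-Hochberg over the genes tested. Few genes of any kind did: 0.0265% of the genes tested passed in the combination against vehicle on day 5, 0.0199% in the combination against anti-PD-1 on day 5, 0.0133% in EPAT arms against arms without EPAT on day 5, and 0% in each of the other 17. The 9 genes lay on one side of vehicle in most comparisons with it. They were chosen with earlier results of these data known. Several of them also moved together across tumours, so a shared direction is not 9 separate results. On day 2 the fold changes of all 9 were above 0 under anti-PD-1, under EPAT and under the combination, and 6, 4 and 7 of them had an unadjusted p under 0.05, against 7.12%, 6.23% and 10.2% of all genes tested. The 3 comparisons share the same 5 vehicle tumours. For Socs1 under EPAT the mean log2 CPM was below vehicle (3.996 against 4.089), and the sign reversed in 10 of 22 alternatives. On day 5 the fold changes of all 9 were above 0 under anti-PD-1 and under the combination, with 0 and 5 of them at an unadjusted p under 0.05 against 7.15% and 16.5% of all genes. Under EPAT 4 were higher and 5 lower, with 0 at that p against 1.7% of all genes. For Socs1 under the combination on day 5 the mean log2 CPM was below vehicle (3.833 against 4.182). The median log2 fold change of the 9 genes was 0.73 under anti-PD-1, 0.48 under EPAT and 0.85 under the combination on day 2, and 0.42, 0.00 and 0.85 on day 5, where the median over all genes lay between -0.02 and 0.02. In bulk tumours fewer cells of a type and less RNA per cell cannot be told apart.

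**Figure D1:**
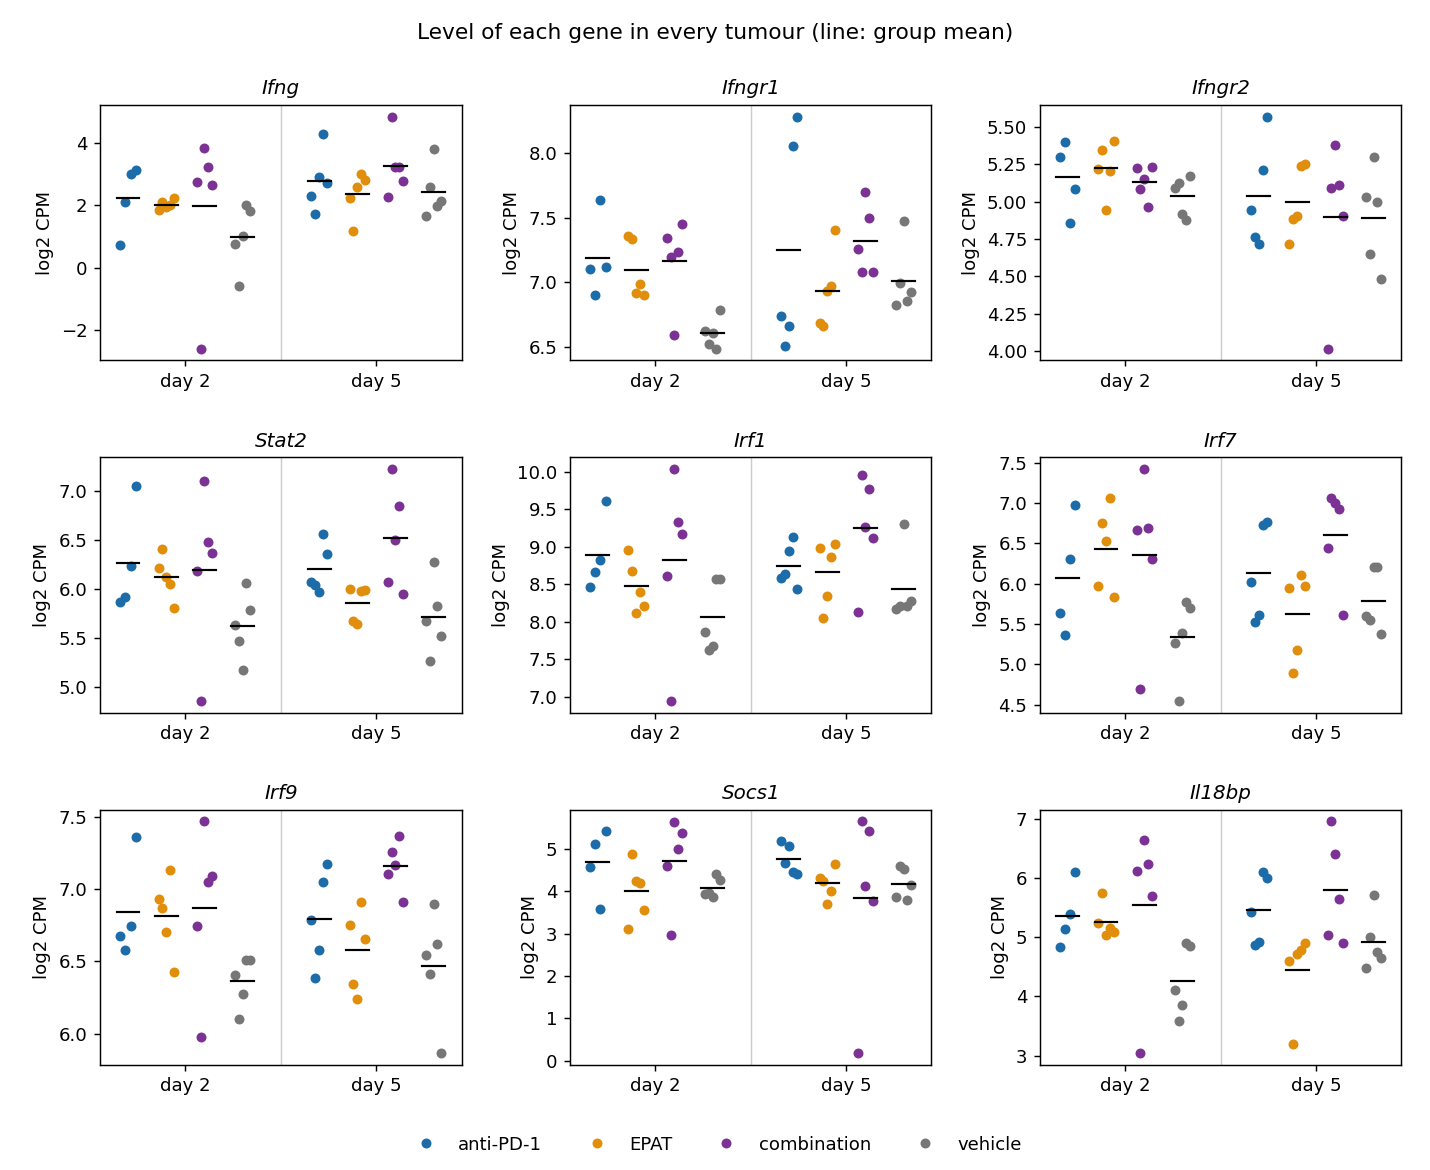
Level of each of the 9 genes in every tumour, as log2 CPM (TMM, prior count 2), by treatment and day, where 1 point is 1 tumour and the black line is the group mean. On day 2 the vehicle mean is the lowest of the 4 groups for each gene but Socs1, where EPAT is lower, and single tumours such as combination tumour 2 of day 2, with 0 CPM of Ifng, lie far from their group.

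Ifng itself was scarce, between 0 and 399 counts a library. On day 2 its level was 1.501, 4.098, 7.91 and 8.49 CPM in anti-PD-1 tumours 1, 2, 4 and 5, 3.43, 4.09, 3.66, 3.85 and 4.52 CPM in EPAT tumours and 6.57, 0, 14.1, 9.18 and 6.13 CPM in combination tumours, against 1.51, 0.4995, 1.85, 3.88 and 3.34 CPM in vehicle tumours. The combination group held both the highest value and the only library with no count of the gene, and all groups overlapped with vehicle. The log2 fold changes against vehicle were 1.29 ± 0.68 for anti-PD-1, 0.79 ± 0.65 for EPAT and 1.67 ± 0.65 for the combination (SE), the last with adjusted p = 0.333 by edgeR. Within libraries with lung transcripts the combination value was 1.83 and within those without them 1.45, with adjusted p of 0.296 and 1 by edgeR. Without combination tumour 2, which had no count, the combination value was 2.01 with adjusted p = 0.0826 by edgeR. Without vehicle tumours 1 to 3 of day 2 and combination tumour 3 of day 5, left out together, it was 1.00, with 2 vehicle tumours remaining on day 2. Over all alternatives tried the combination value lay between 0.70 and 2.01. Mean log2 CPM was 1.971 for the combination, below 2.02 for EPAT and 2.238 for anti-PD-1, against 0.996 for vehicle.

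On day 5 Ifng was 4.79, 3.15, 7.35, 19.5 and 6.38 CPM in anti-PD-1 tumours, 4.497, 2.11, 5.85, 7.799 and 6.82 CPM in EPAT tumours and 4.62, 28.3, 9.198, 9.13 and 6.62 CPM in combination tumours, against 3.01, 5.81, 13.7, 3.76 and 4.25 CPM in vehicle tumours. One tumour stood above the others in each of the anti-PD-1, combination and vehicle groups, and all groups overlapped. The fold changes were 0.44 ± 0.62, -0.15 ± 0.63 and 0.94 ± 0.62 in the same order, none with an unadjusted p under 0.05 by edgeR. For the combination on day 5 the value was 2.35 within libraries with lung transcripts, 2 combination and 3 vehicle tumours, and -0.52 within those without them, 3 combination and 2 vehicle tumours. Vehicle tumours of day 5 had 6.11 ± 4.36 CPM (mean ± SD, n = 5) and those of day 2 2.21 ± 1.38 CPM, a log2 difference of 1.43 ± 0.65 with adjusted p = 0.896 by edgeR. The spread of Ifng within groups was the widest of the 9 genes, with a pooled SD of 1.24 on the log2 scale where the median over all genes tested was 0.384.

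Ifngr1, the ligand-binding chain, had 137, 119, 199 and 138 CPM in anti-PD-1 tumours and 164, 161, 120.4, 126 and 119.5 CPM in EPAT tumours on day 2, and 162, 146, 96.5, 151 and 175 CPM in combination tumours, against 98.6, 91.7, 97.5, 89.5 and 110.3 CPM in vehicle tumours. Every anti-PD-1 and every EPAT tumour lay above all vehicle tumours, while combination tumour 3 lay within the vehicle range. The log2 fold changes were 0.61 ± 0.26, 0.50 ± 0.24 and 0.58 ± 0.24, with adjusted p of 0.633, 0.795 and 0.382 by edgeR. Here and for the other separations of groups below, the share of all genes without overlap was not computed. Under anti-PD-1 and EPAT on day 2, 7.12% and 6.23% of all genes had an unadjusted p under 0.05 by edgeR. On day 5 Ifngr1 averaged 175 ± 105 CPM in anti-PD-1 tumours, 124 ± 27.5 CPM in EPAT tumours and 162 ± 31.4 CPM in combination tumours, against 131 ± 26.5 CPM in vehicle tumours (SD, n = 5 each). The anti-PD-1 mean rested on tumours 4 and 5 at 266 and 310.3 CPM, and the other 3 lay between 90.7 and 107 CPM. Vehicle tumours of day 5 (113 to 177 CPM) lay wholly above those of day 2 (89.5 to 110.3 CPM), with a log2 difference of 0.42 ± 0.24 and adjusted p = 0.969 by edgeR.

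Ifngr2, the signalling chain, was the steadiest of the 9 genes, with a pooled within-group SD of 0.292 on the log2 scale. Its group means lay between 30.1 and 37.4 CPM over all 8 groups, and its log2 fold changes against vehicle were between 0.05 and 0.19, with 95% intervals that reached at most 0.56. Combination tumour 1 of day 5, at 16.02 CPM, was the lowest library for this gene.

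Of the STAT and IRF genes, Stat2, a subunit of the type I interferon complex, had 72.3, 28.9, 137, 88.9 and 82.5 CPM in combination tumours on day 2 against 49.7, 44.1, 35.9, 66.5 and 55.1 CPM in vehicle tumours. It had 67.3, 149, 90.6, 115 and 61.7 CPM in combination tumours on day 5 against 50.9, 38.4, 77.5, 56.6 and 45.9 CPM in vehicle tumours. The log2 fold changes of the combination were 0.70 ± 0.27 on day 2 and 0.85 ± 0.27 on day 5, with adjusted p = 0.325 and 0.179 by edgeR, and the groups overlapped on both days. On day 5 the value was 1.37 within libraries with lung transcripts and 0.33 within those without them. Values under anti-PD-1 were 0.70 ± 0.28 on day 2 and 0.46 ± 0.27 on day 5, and under EPAT 0.48 ± 0.27 and 0.11 ± 0.27. Anti-PD-1 tumours had 58.3 to 132 CPM on day 2 and 62.3 to 94.2 CPM on day 5, and EPAT tumours 55.7 to 84.97 CPM and 49.9 to 63.9 CPM.

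Irf9, which binds DNA for the type I interferon complex, was the one gene of the 9 without overlap between combination and vehicle tumours on day 5. Its level was 137, 152, 143, 165 and 120.3 CPM in combination tumours against 93.2, 84.99, 119, 98.3 and 58.2 CPM in vehicle tumours. The log2 fold change was 0.66 ± 0.20 with adjusted p = 0.179 by edgeR, and it was 0.94 within libraries with lung transcripts and 0.39 within those without them. The share of all genes without overlap was not computed. In this comparison 16.5% of all genes had an unadjusted p under 0.05 by edgeR, and 0.0265% passed. On day 2 Irf9 was 102, 95.5, 107 and 164 CPM in anti-PD-1 tumours against 84.6, 68.7, 77.4, 90.9 and 91.2 CPM in vehicle tumours, again without overlap, with a log2 fold change of 0.50 ± 0.21 and adjusted p = 0.633 by edgeR. Under EPAT and the combination the day 2 values were 0.46 ± 0.20 and 0.58 ± 0.20, and both groups overlapped with vehicle.

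Irf1, a transcription factor gene induced by interferon-gamma, had 352, 406, 454 and 777 CPM in anti-PD-1 tumours, 496, 409, 276, 337 and 296 CPM in EPAT tumours and 389.6, 123, 1048, 642 and 575 CPM in combination tumours on day 2, against 233, 197, 205, 379 and 378 CPM in vehicle tumours. Vehicle tumours 1 to 3 lay at 197 to 233 CPM and tumours 4 and 5 at 378 and 379 CPM, so the upper vehicle tumours overlapped with every treated group. The fold changes were 0.84 ± 0.37, 0.38 ± 0.35 and 1.00 ± 0.35, and without the same 4 libraries, vehicle tumours 1 to 3 of day 2 and combination tumour 3 of day 5, they were 0.39, -0.06 and 0.55. On day 5 Irf1 reached 279.6, 995, 616, 870.3 and 553 CPM in combination tumours against 286, 294, 629, 295 and 310.3 CPM in vehicle tumours, where tumour 3 was well above the rest. The day 5 fold change of the combination was 0.87 ± 0.35 with adjusted p = 0.236 by edgeR, and it was 1.65 within libraries with lung transcripts and 0.06 within those without them. Anti-PD-1 tumours of day 5 had 347 to 561 CPM and EPAT tumours 265 to 526 CPM, with fold changes of 0.26 ± 0.35 and 0.20 ± 0.35.

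Irf7, the type I interferon amplifier, had the largest log2 fold change of the 9 genes under EPAT on day 2. It had 62.8, 108, 92.6, 133 and 56.99 CPM in EPAT tumours against 38.4, 23.2, 41.8, 54.6 and 51.9 CPM in vehicle tumours, with no overlap between the groups. The log2 fold change was 1.11 ± 0.37 with adjusted p = 0.697 by edgeR, and 1.25 without the 3 tumours whose name numbers go with the other day. In this comparison 6.23% of all genes had an unadjusted p under 0.05 by edgeR, and 0% passed. On day 5 EPAT tumours had 61.7, 29.6, 36.1, 68.7 and 62.5 CPM against 48.2, 46.6, 74, 73.7 and 41.5 CPM in vehicle tumours, the groups overlapped, and the fold change was -0.13 ± 0.36. The difference between the EPAT effects of the 2 days, day 5 minus day 2, was -1.24 ± 0.52 for Irf7 and -1.36 ± 0.60 for Il18bp, with adjusted p of 0.942 for both by edgeR, so it did not pass. Irf7 had 101, 25.9, 171, 103 and 79.3 CPM in combination tumours on day 2 and 86.98, 133, 128, 121 and 48.8 CPM in those of day 5. Both groups overlapped with vehicle, with fold changes of 1.19 ± 0.37 and 0.87 ± 0.37. Anti-PD-1 gave 0.81 ± 0.38 on day 2 and 0.40 ± 0.36 on day 5.

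**Figure D2:**
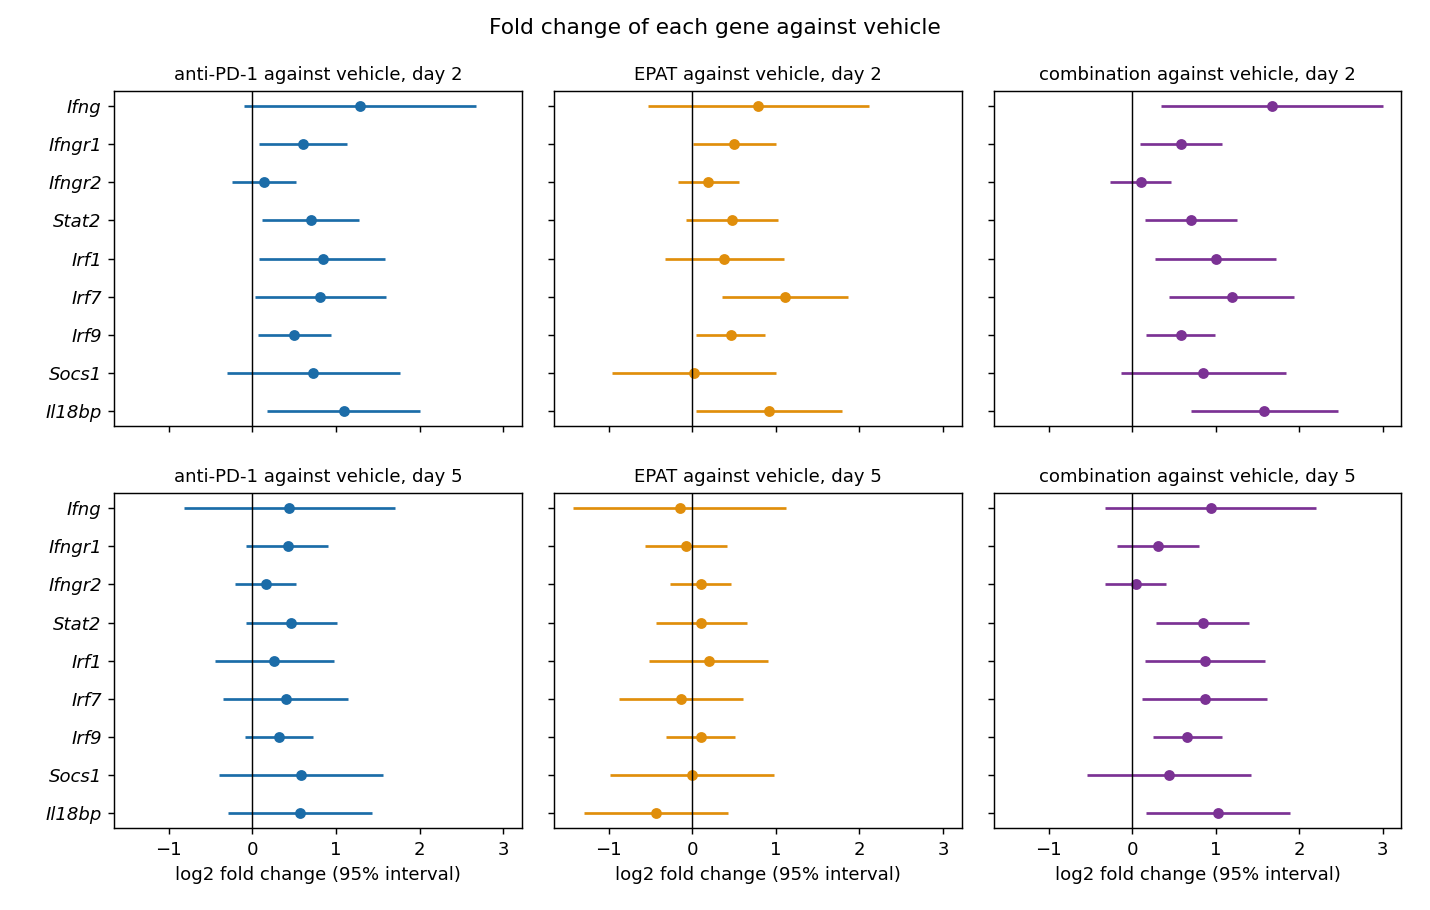
Log2 fold change of each gene against vehicle (points) with 95% intervals (lines) for the 3 treatments on both days, from the edgeR model of all 39 tumours. All 9 points lie above 0 on day 2 in each treatment, and on day 5 under anti-PD-1 and the combination, while under EPAT on day 5 they lie between -0.44 and 0.20.

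Il18bp, the trap for interleukin-18, showed the smallest p of the 9 genes in 2 of the 6 comparisons with vehicle. These were the combination on day 2, where it was higher, and EPAT on day 5, where it was lower. Under EPAT on day 5 none of the 9 genes had an unadjusted p under 0.05 by edgeR. Il18bp also had the smallest p of the 9 in the contrast of anti-PD-1 arms on day 5. On day 2 its level was 28.4, 34.9, 41.9 and 68.5 CPM in anti-PD-1 tumours, 37.8, 53.8, 32.8, 35.5 and 33.8 CPM in EPAT tumours and 69.6, 8.07, 100.1, 75.3 and 51.6 CPM in combination tumours, against 17.1, 11.9, 14.4, 29.9 and 28.6 CPM in vehicle tumours. All EPAT tumours lay above all vehicle tumours, and combination tumour 2 was the lowest of all 39 libraries. The log2 fold changes were 1.09 ± 0.45, 0.92 ± 0.43 and 1.58 ± 0.43, with adjusted p = 0.17 by edgeR for the combination. Without combination tumour 2 this value was 1.87 with adjusted p = 0.0403 by edgeR, and without vehicle tumours 1 to 3 of day 2 and combination tumour 3 of day 5 it was 1.06 with adjusted p = 1. Over the alternatives tried its adjusted p lay between 0.00972 and 1.

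On day 5 Il18bp was 42.8, 29.2, 30.1, 68.4 and 64.02 CPM in anti-PD-1 tumours, 24.01, 8.98, 26.3, 27.5 and 29.7 CPM in EPAT tumours and 32.7, 125, 84.3, 49.98 and 29.9 CPM in combination tumours, against 22.2, 32.1, 52.3, 26.9 and 25.02 CPM in vehicle tumours. Each treated group overlapped with vehicle, with fold changes of 0.57 ± 0.42, -0.44 ± 0.42 and 1.03 ± 0.42. The combination value was 1.83 within libraries with lung transcripts and 0.21 within those without them. No combination tumour lay within the EPAT range, though the lowest, at 29.9 CPM, was close to the highest EPAT tumour, at 29.7 CPM. The combination differed from EPAT by 1.46 ± 0.43 with adjusted p = 0.282 by edgeR. In this comparison 12.7% of all genes had an unadjusted p under 0.05 by edgeR, and 0% passed. Irf7, Irf9 and Stat2 gave 1.00 ± 0.37, 0.57 ± 0.20 and 0.73 ± 0.27 in the same comparison, with adjusted p of 0.3, 0.3 and 0.301 by edgeR. The departure of the combination from the sum of both log2 effects on day 5, an interaction term, was 0.89 ± 0.60 for Il18bp with adjusted p = 1 by edgeR.

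Socs1, the JAK inhibitor, varied most between tumours in the combination groups, with an SD of 1.06 on day 2 and 2.20 on day 5 on the log2 scale, against 0.238 and 0.374 in vehicle tumours. On day 2 it had 23.7, 34.7, 11.9 and 42.97 CPM in anti-PD-1 tumours, 8.47, 29.1, 18.8, 18.1 and 11.7 CPM in EPAT tumours and 23.96, 7.61, 49.7, 31.7 and 41.1 CPM in combination tumours, against 15.2, 15.4, 14.4, 21.1 and 19.1 CPM in vehicle tumours, with fold changes of 0.73 ± 0.51, 0.02 ± 0.48 and 0.85 ± 0.48. On day 5 it was 36.4, 25.4, 33.5, 21.9 and 21.1 CPM in anti-PD-1 tumours, 19.9, 18.7, 12.9, 15.99 and 24.7 CPM in EPAT tumours and 0.968, 50.3, 17.3, 42.8 and 13.5 CPM in combination tumours, against 14.3, 24.2, 22.7, 13.6 and 17.6 CPM in vehicle tumours. Combination tumour 1 of day 5 held 9 counts of the gene, the fewest of any library. All treated groups overlapped with vehicle on both days. The day 5 fold changes were 0.58 ± 0.48, 0.00 ± 0.48 and 0.44 ± 0.48, none with an unadjusted p under 0.05 by edgeR.

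When both groups that received anti-PD-1 were averaged and set against the average of EPAT and vehicle, all 9 genes were higher on each day, with 6 at an unadjusted p under 0.05 on day 2 (7.17% of all genes tested) and 5 on day 5 (18.9% of all genes tested). On day 2 the values were 0.87 ± 0.31 for Il18bp, 0.73 ± 0.26 for Irf1, 0.78 ± 0.35 for Socs1 and 1.09 ± 0.46 for Ifng. On day 5 they were 1.01 ± 0.30 for Il18bp, 0.70 ± 0.26 for Irf7, 0.60 ± 0.19 for Stat2, 0.44 ± 0.14 for Irf9 and 0.77 ± 0.44 for Ifng, and the smallest adjusted p was 0.147 by edgeR. Within the libraries with lung transcripts the day 5 values were 1.62 for Il18bp, 1.17 for Irf1 and 1.01 for Stat2, with adjusted p of 0.0417, 0.0355 and 0.0355 by edgeR, in a fit where 105 of 15322 genes passed. Within the libraries without them they were 0.48, -0.12 and 0.24, with adjusted p between 0.925 and 0.978. The antibody tumours of day 5 with lung transcripts were combination tumours 2 and 4 and anti-PD-1 tumours 2 and 4. Combination tumour 2 and anti-PD-1 tumour 4 held the highest Ifng of their groups, 28.3 and 19.5 CPM. Leaving out vehicle tumour 3 of day 5 gave 1.14 for Il18bp with adjusted p = 0.0496 by edgeR. For both groups given EPAT against both groups without it, the day 2 values were 0.74 ± 0.27 for Irf7 and 0.71 ± 0.31 for Il18bp, with adjusted p = 0.998 for both by edgeR. On day 5 they were 0.17 ± 0.26 for Irf7 and 0.01 ± 0.30 for Il18bp, with adjusted p = 0.999 for both.

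Other genes of the pathway were counted from lists, also chosen with earlier results of these data known. None of the genes on them passed an adjusted p of 0.05 in any of the 20 comparisons by edgeR. Of 9 JAK kinase and other STAT genes, all 9 were higher in combination tumours than in vehicle tumours on day 2, with a median log2 fold change of 0.37, and all 9 on day 5, with a median of 0.19. Jak2, one of the receptor's kinases, averaged 81.6 CPM in combination tumours of day 2 against 62.0 CPM in vehicle tumours, a log2 fold change of 0.40 ± 0.14 with adjusted p = 0.26 by edgeR. All 15 interferon-gamma target genes tested lay above vehicle under the combination on both days, with medians of 0.94 on day 2 and 0.84 on day 5, and 10 and 5 of them at an unadjusted p under 0.05, where 10.2% and 16.5% of all genes tested were. Cd274, which encodes the PD-1 ligand PD-L1, gave 1.67 ± 0.46 on day 2 and 1.24 ± 0.45 on day 5, and Tap1, a peptide transporter of antigen presentation, gave 1.05 ± 0.29 and 0.74 ± 0.29. Under EPAT on day 5, 7 of the 15 were higher and 8 lower, with a median of -0.03. Of 13 genes of interferon-gamma induction, 12 had a positive fold change under the combination on day 2 and 13 on day 5. Among them Tbx21, the T-bet factor that drives interferon-gamma transcription, gave 1.47 ± 0.52 on day 2, and the cytokine subunit gene Il27 gave 1.58 ± 0.46. Of 11 other inhibitors of JAK-STAT signalling, 8 were higher and 3 lower on day 2 with a median of 0.12, and Usp18, which restrains the type I receptor, gave 0.97 ± 0.39. Of 5 other interferon regulatory factors, 3 were higher and 2 lower, and Irf2 gave 0.41 ± 0.15. Of the type I interferon genes listed, Ifnb1, Ifna1, Ifna2 and Ifna4 had no count in any library and Ifne had at most 3, while the receptor gene Ifnar1 gave 0.68 ± 0.22 under the combination on day 5 with adjusted p = 0.182 by edgeR.

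Markers of the cells that make or answer interferon-gamma were counted beside these genes. All 10 T cell, 7 NK cell and 9 monocyte and macrophage markers were higher under the combination than under vehicle on both days. On day 2 their medians were 0.37, 0.98 and 0.87 on the log2 scale, and on day 5 1.08, 0.79 and 0.60. Summed NK markers ranged from 28.5 to 259 CPM in combination tumours of day 2, with a median of 238, against 53.0 to 119 CPM in vehicle tumours. Summed T cell markers reached 238 CPM in combination tumours, with a median of 164, against 52.2 to 192 CPM in vehicle tumours, median 88.6. Combination tumour 2 of day 2, the tumour with no count of Ifng, held the minimum of both lists over all 39 libraries. All of their markers were above 0 counts in it. Its monocyte and macrophage markers summed to 2048 CPM, against 2235 to 2647 CPM in the other 4 combination tumours. Under anti-PD-1, 9 of the 10 T cell markers, all 7 NK cell and all 9 monocyte and macrophage markers were higher on day 2, and all 10, 6 and 9 on day 5. Under EPAT on day 2, 8 of the T cell markers and all of the other 2 lists were higher. Under EPAT on day 5, where 4 of the 9 genes were higher and 5 lower, 3 of the 7 NK cell markers and 3 of the 9 monocyte and macrophage markers were higher, and all 10 T cell markers. On day 2 the fold changes of the 3 B cell, 4 keratinocyte and 5 adipocyte markers were below 0 in all 3 treatments. Summed B cell markers had medians of 8.89 CPM under anti-PD-1, 9.04 CPM under EPAT and 6.88 CPM under the combination against 7.80 CPM in vehicle, where 1 tumour reached 205 CPM. The 6 skeletal muscle markers had positive fold changes, with medians of 3.28 under anti-PD-1, 2.99 under EPAT and 1.39 under the combination. The part of these cells in the differences of the 9 genes was not tested.

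Across the 39 tumours the levels of the 9 genes moved together in part. Pearson r with Ifng on log2 CPM was 0.84 for Irf1, 0.83 for Il18bp, 0.76 for Stat2, 0.72 for Irf7 and 0.68 for Irf9, and Spearman rho was 0.81, 0.76, 0.72, 0.67 and 0.68 in the same order. These 5 genes had a permutation p of 1e-05, the smallest that 100000 resamples can give, and an adjusted p of 0.000546 over the 15069 other genes tested. In the same test 12.6% of all genes passed, 1308 with a positive r and 585 with a negative one. Socs1 had r = 0.39 and rho = 0.45, Ifngr1 r = 0.37 and rho = 0.52, and Ifngr2 r = 0.06 and rho = 0.14, with permutation adjusted p of r of 0.122, 0.109 and 0.82. By rho, Socs1 and Ifngr1 had adjusted p of 0.0194 and 0.00519 in a test that 32.1% of all genes passed. Without the 2 tumours farthest from the median of Ifng, combination tumour 2 and vehicle tumour 2 of day 2, r was 0.80 for Irf1, 0.79 for Il18bp, 0.72 for Stat2, 0.64 for Irf7 and 0.61 for Irf9. Ifngr1 passed without these 2 tumours, with r = 0.48 and a permutation adjusted p of 0.021, and on log2(CPM + 0.5) without TMM, with r = 0.45 and a permutation adjusted p of 0.0343. For these alternatives the share of all genes that passed was not counted, so passing there is not a result particular to Ifngr1. Within day 2 the values of the 5 genes were 0.88, 0.92, 0.86, 0.82 and 0.81, and within day 5 they were 0.81, 0.84, 0.74, 0.69 and 0.61. With group means subtracted they were 0.85, 0.91, 0.80, 0.77 and 0.69. Socs1, Ifngr1 and Ifngr2 had r of 0.63, 0.21 and 0.01 within day 2 and 0.33, 0.55 and 0.42 within day 5. None of these within-day values had a permutation adjusted p under 0.05. Tumours share tissue content and library preparation, so these values describe the tumours and not a link within cells.

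**Figure D3:**
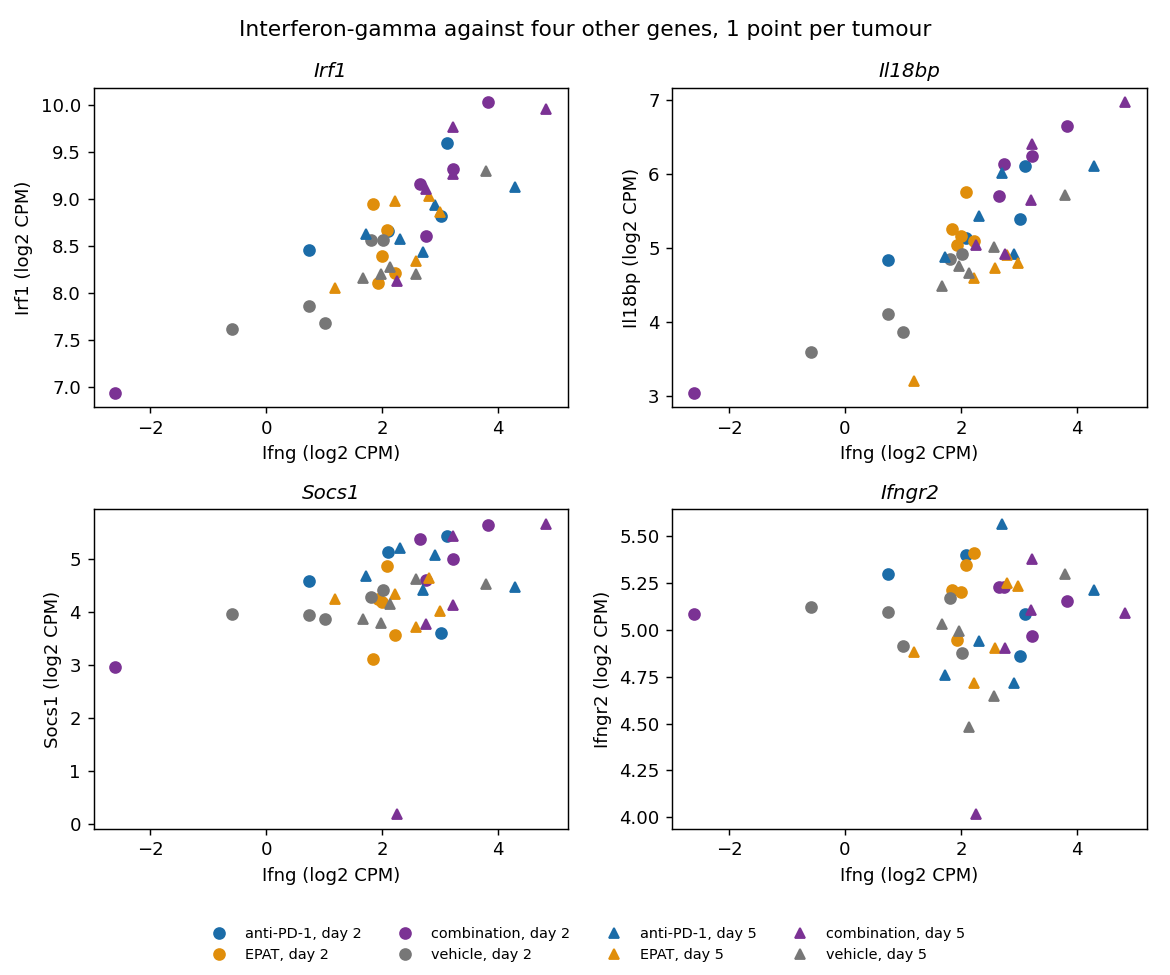
Level of Irf1, Il18bp, Socs1 and Ifngr2 (vertical axis, log2 CPM) against Ifng (horizontal axis, log2 CPM), where 1 point is 1 tumour, colours mark treatment and circles and triangles mark days 2 and 5. Irf1 and Il18bp climb with Ifng (r = 0.84 and 0.83), whereas Ifngr2 does not over all tumours (r = 0.06, with 0.01 within day 2 and 0.42 within day 5).

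The genes nearest to Ifng over the 39 tumours were Nlrc5, Ubd, Igtp, Gbp4 and Rnf19b, with r of 0.90, 0.89, 0.88, 0.87 and 0.87 and rho of 0.80, 0.84, 0.76, 0.75 and 0.92. Nlrc5 is the transactivator of MHC class I genes, and Igtp and Gbp4 are interferon-induced GTPases. Irf1 was nearest to Gbp2b, Gbp4 and Igtp, with r of 0.93, 0.92 and 0.89. Irf7 was nearest to Dhx58, Lgals3bp and Oas3 (r of 0.94, 0.94 and 0.93), Irf9 to Parp14, Phf11d and Oasl1 (0.93, 0.91 and 0.91) and Stat2 to Rtp4, Rnf213 and Phf11d (0.93 for each). Il18bp was nearest to Gbp8, Scimp and Lgals3bp (0.90, 0.90 and 0.89), Socs1 to Ccl2, Helz2 and Rnf114 (0.90, 0.86 and 0.86), Ifngr1 to Pdxk, Inpp5d and Iqgap2 (0.90, 0.89 and 0.89) and Ifngr2 to Sptlc2, Aftph and Rnaset2b (0.80, 0.75 and 0.74).

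Among the 9 genes, Stat2, Irf1, Irf7, Irf9 and Il18bp formed the tightest group, with pairwise r between 0.71 and 0.89. Ifngr1, Ifngr2 and Socs1 stood apart. Both receptor genes had r of at most 0.50 to any other of the 9. Socs1 correlated most with Irf1 (0.56) and had r between -0.04 and 0.46 with the rest.

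**Figure D4:**
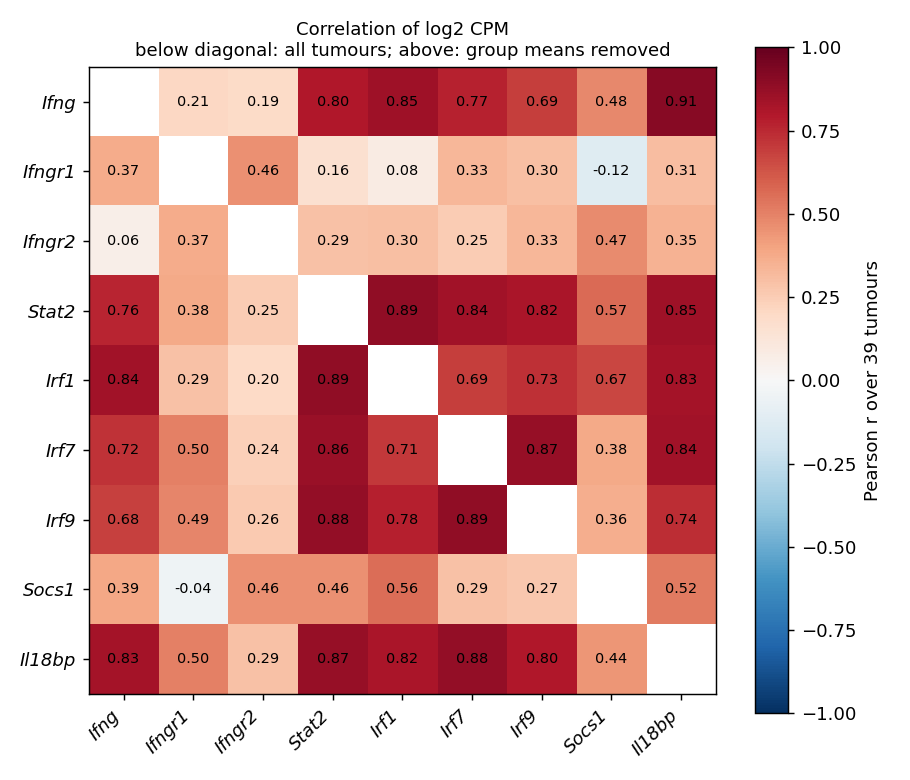
Pearson r of log2 CPM between each pair of the 9 genes over 39 tumours, below the diagonal for all tumours and above it after each group's mean was subtracted, with red for positive and blue for negative values. Stat2, Irf1, Irf7, Irf9 and Il18bp form a block with r of 0.71 to 0.89, and Ifngr2 has no r above 0.46 below the diagonal.

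Promoter windows of the 9 genes, from 250 bases before to 50 bases after the transcription start, were taken from RefSeq on GRCm38.p6, where all 9 had an entry. They were searched on both strands for the gamma-activated sequence GAS, TTCNNNGAA, and for the core of the interferon-stimulated response element, GAAANNGAAA. GAS was found in 9.55% of the 27025 genes with a 300-base window and the response element core in 3.99%. Ifng and Irf1 held GAS, and Stat2, on its reverse strand, and Socs1 held the response element core, so 4 of the 9 genes held a match. The stretches around them are shown because these matches lie in genes whose levels were compared above. Capitals mark the matches.
Ifng: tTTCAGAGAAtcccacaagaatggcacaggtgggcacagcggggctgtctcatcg
Irf1: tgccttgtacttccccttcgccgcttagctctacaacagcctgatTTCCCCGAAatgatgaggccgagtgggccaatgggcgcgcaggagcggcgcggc
Stat2: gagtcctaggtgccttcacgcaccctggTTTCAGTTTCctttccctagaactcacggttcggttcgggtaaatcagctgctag
Socs1: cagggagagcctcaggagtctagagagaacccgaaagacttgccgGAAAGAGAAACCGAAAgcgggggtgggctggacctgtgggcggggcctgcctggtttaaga
The stretches lie at chr10:118440796-118440850 on the plus strand for Ifng, chr11:53769879-53769977 on the plus strand for Irf1, chr10:128270248-128270330 on the plus strand for Stat2 and chr16:10785559-10785664 on the minus strand for Socs1. The GAS of Irf1 lay 90 to 82 bases before the start, and Socs1 held a pair of overlapping core matches, from 83 to 68 bases before it. Of the other genes with a match, Irf1, Stat2 and Socs1 had r of 0.84, 0.76 and 0.39 with Ifng. Il18bp, Irf7, Irf9, Ifngr1 and Ifngr2, with neither motif in their windows, had r of 0.83, 0.72, 0.68, 0.37 and 0.06. A relation between motif and level was not tested. A match is a description of the letters and no evidence of binding.

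The genes lie, on GRCm38 in the GENCODE annotation, at chr10:118441046-118445892 (Ifng), chr10:19591949-19610229 (Ifngr1), chr16:91547072-91565623 (Ifngr2), chr10:128270559-128292849 (Stat2), chr11:53770014-53778374 (Irf1), chr7:141262706-141266481 (Irf7), chr14:55603571-55610030 (Irf9), chr16:10782240-10785536 (Socs1) and chr7:102014885-102018690 (Il18bp). Irf9 overlaps Rnf31 on the same strand, Irf1 overlaps Gm17334, Irf7 overlaps Phrf1 and Il18bp overlaps Numa1 on the opposite strand. Ifng overlaps Gm49751 on its own strand. Whether counting used the strand is not stated, so reads of overlapping genes cannot be told apart.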

How the data were processed

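Bulk RNA of 39 tumours was sequenced with a QuantSeq 3′ forward kit from 500 ng of RNA, and the authors deposited whole-number counts for genes named by Ensembl identifier, and log2 CPM in a second table. Per the submitters' processing notes, the tools were bcl2fastq, STAR, featureCounts and limma with mm10 and GRCm38, without versions or a strand setting. The deposited log2 values entered alternatives only. Genes were kept by filterByExpr (minimum count 10, minimum total 15), scaled by TMM and fitted with edgeR 4.0.16 in R 4.3.3, with 1 mean per group over all 39 libraries and 31 residual degrees of freedom, and p-values were adjusted by Benjamini-Hochberg over the 15070 genes of each comparison. SE is the log2 fold change over the square root of F. Correlations used log2 CPM with a prior count of 2. Symbols came from GENCODE, and 14912 of the tested identifiers matched. Members and lists were chosen with earlier results of these data known. Named genes were all 9 members, list genes by smallest p, and the 5 genes nearest Ifng and 3 nearest each other member by r, among genes with mean log2 CPM of at least 1 and no predicted or clone name. Within-group pairs all differed by more than counting noise (lowest chi-square per gene 9.84). Alternatives were DESeq2 1.42.0, limma 3.58.1, other scaling and filters, and leaving out libraries. The model and correlation code was tested on simulated data. Results of 1 gene of the pathway lists are not reported here.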

Additional observations from a re-analysis of the deposited data

Results flagged for a closer look

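In 6 of 72 sets of a gene and a group, 1 tumour stood apart from the other 4 on the log2 scale, where chance flags about 1 in 20 sets. Ifng had 0 CPM in combination tumour 2 of day 2, against 6.13 to 14.1 CPM in the other 4, and Il18bp had 8.07 CPM in the same tumour, against 51.6 to 100.1 CPM. Ifngr1 had 177 CPM in vehicle tumour 3 of day 5, against 113 to 127 CPM, and Irf1 had 629 CPM in that tumour, against 286 to 310.3 CPM. Il18bp had 53.8 CPM in EPAT tumour 2 of day 2, against 32.8 to 37.8 CPM, and 8.98 CPM in EPAT tumour 2 of day 5, against 24.01 to 29.7 CPM.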

How the results depend on the processing

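In the combination against vehicle on day 2, where 0 of the 9 genes passed, 1 passed with DESeq2 (Il18bp, among 75 of 15547 genes). With limma-voom and quality weights 4 passed (Ifngr1, Irf7, Irf9 and Il18bp, among 567 of 15070 genes). Without combination tumour 2 of either day, an alternative added after seeing the data, 1 passed (Il18bp, among 27 of 15029 genes). Leaving out each tumour gave 0 to 1. In anti-PD-1 arms on day 5, 3 passed in libraries with lung transcripts (Stat2, Irf1 and Il18bp, among 105 of 15322 genes), and leaving out each tumour gave 0 to 1. Without the 3 tumours whose name numbers go with the other day, also added after seeing the data, 0 passed in every comparison and 1 direction reversed, that of Il18bp in EPAT arms on day 5. In every other comparison and alternative run the count stayed at 0, and the replicate block gave 0 in all 20. Replicate numbers did not pair tumours: the mean correlation of deviations was 0.00568 for the same number and -0.00119 for others, and 6 of 39 libraries matched their own number best.

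Directions reversed as follows, and the cause was not tested. EPAT against vehicle on day 2 gave Irf1 -0.06 and Socs1 -0.22 without vehicle tumours 1 to 3 of day 2 and combination tumour 3 of day 5, and Socs1 -0.09 with limma-trend, -0.05 with limma-voom, -0.05 with the replicate block and 0 in libraries with lung transcripts. On day 5 libraries with lung transcripts gave, for EPAT, Ifng 0.15, Irf1 -0.01, Irf9 -0.09, Socs1 0.04 and Stat2 -0.02, and limma-voom gave Ifng 0.30, limma-trend Socs1 0, the replicate block Socs1 0.04, and libraries without lung transcripts Irf7 0.09. In libraries without lung transcripts on day 5, anti-PD-1 gave Ifng -0.66 and Irf1 -0.19, the combination Ifng -0.52, Ifngr2 -0.14 and Socs1 -1.14, and anti-PD-1 arms Ifng -0.28, Ifngr2 -0.06, Irf1 -0.12 and Socs1 -0.28. Il18bp in EPAT arms on day 5, 0.01, gave -0.07 with limma-trend, -0.27 in libraries without lung transcripts, -0.18 without combination tumour 2 of either day, -0.09 without the 3 tumours above, -0.05 without the 4 libraries and -0.18 to 0.14 leaving out single tumours. Also on day 5, limma-voom gave Ifngr1 -0.19 under anti-PD-1 and Ifngr2 0 in anti-PD-1 arms, limma-trend gave Socs1 -0.37 under the combination, and without those 4 libraries Ifngr2 was -0.08 under the combination and -0.01 in anti-PD-1 arms. Leaving out single tumours, the values that changed sign ranged from -0.33 to 0.38 (Ifng), -0.21 to 0.06 (Ifngr1), -0.26 to 0 (Irf7), -0.03 to 0.21 (Irf9) and -0.13 to 0.11 (Socs1) for EPAT on day 5, -0.26 to 0.20 for Socs1 under EPAT on day 2, -0.16 to 0.97 for Ifng under anti-PD-1 on day 5, -0.08 to 0.22 for Ifngr2 under the combination on day 5, and -0.02 to 0.07 and -0.01 to 0.14 for Ifngr2 in anti-PD-1 arms on days 2 and 5.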
